A study of Mus musculus with 24 samples.

Results

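The 114 genes described here are the small nucleolar and Cajal body RNA genes of mouse liver. They were chosen by name alone, as every row of the deposited count matrix of 24015 genes whose symbol starts with Snord (69 genes), Snora (36 genes) or Scarna (9 genes) followed by a digit. Female B6C3F1 mice, 5 to 6 weeks old when bought, were gavaged for 21 days with furan, a liver toxicant, at 8 mg per kg of body weight a day in corn oil. Control mice received corn oil alone, and livers were collected 4 h after the last dose. Each liver was divided, and its pieces were snap frozen, or fixed in formalin for 18 h or for 3 weeks and embedded in paraffin (FFPE). The libraries with a matched column were 3 furan and 3 control fresh-frozen libraries, and 4 furan and 4 control libraries at each fixation time. Replicates are different animals, the pieces of 1 liver sharing an animal number (furan 41 to 44, control 02, 03, 04 and 06), and every mouse received corn oil. Frozen pieces of about 100 mg and FFPE sections of 10 µm (1 per sample after 18 h and 2 after 3 weeks) were extracted with different kits, so fixation cannot be told apart from the kit and the number of sections. Per the labels, RNA integrity numbers were above 8.9 for frozen tissue and between 1.3 and 2.4 for FFPE tissue, and all libraries were selected on poly(A) and made without strand information.

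Small nucleolar RNAs guide the chemical modification of other RNAs. Box C/D RNAs (Snord symbols) direct methylation of ribose, box H/ACA RNAs (Snora symbols) direct the change of uridine to pseudouridine, mainly in ribosomal RNA, and the small Cajal body RNAs (Scarna symbols) do the same for spliceosomal RNAs. In mammals most are cut from the introns of longer host genes, often genes for ribosomal proteins or translation factors, and the mature RNA carries no poly(A) tail. Reads counted at such a gene in a poly(A)-selected library can therefore come from the mature RNA or from a transcript of the host that still holds it, and these counts do not separate the sources.

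The sequences of 6 genes on which the results turn are shown because they include some of the genes higher in FFPE tissue, the gene with most counts, the main faller and the gene called in the furan comparison. They are GENCODE M21 transcripts of build GRCm38, written 5′ to 3′. Capitals mark, for box C/D RNAs, a C box (TGATGA starting in the first 15 bases) and a D box (CTGA in the last 15 bases), and for box H/ACA RNAs an ACA that ends 3 bases before the 3′ end, all searched on the RNA strand. Snord17 lies at chr2:144265979-144266216, minus strand, in an intron of Snx5. Snord15b lies at chr7:99479563-99479707, minus strand, inside Rps3. Snord104 lies at chr11:106500993-106501062, plus strand, in no longer gene of its strand. Snora21 lies at chr11:97781639-97781775, minus strand, in Rpl23. Snora20 lies at chr17:12922790-12922917, plus strand, in Tcp1. Snora41 lies at chr1:63179004-63179135, plus strand, in Eef1b2.
Snord17: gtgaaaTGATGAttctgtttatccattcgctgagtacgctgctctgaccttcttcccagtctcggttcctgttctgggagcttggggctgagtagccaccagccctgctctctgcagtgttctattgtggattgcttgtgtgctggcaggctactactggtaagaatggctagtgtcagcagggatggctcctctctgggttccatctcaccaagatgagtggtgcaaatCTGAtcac
Snord15b: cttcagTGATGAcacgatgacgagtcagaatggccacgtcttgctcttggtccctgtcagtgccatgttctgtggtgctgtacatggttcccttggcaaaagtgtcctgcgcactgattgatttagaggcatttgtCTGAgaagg
Snord104: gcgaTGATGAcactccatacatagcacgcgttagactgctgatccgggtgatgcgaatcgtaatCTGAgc
Snora21: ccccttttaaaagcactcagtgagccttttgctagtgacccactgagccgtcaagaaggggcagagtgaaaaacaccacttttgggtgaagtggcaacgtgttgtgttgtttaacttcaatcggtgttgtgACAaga
Snora20: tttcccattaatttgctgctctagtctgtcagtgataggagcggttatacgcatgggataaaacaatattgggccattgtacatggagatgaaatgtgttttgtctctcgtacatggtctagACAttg
Snora41: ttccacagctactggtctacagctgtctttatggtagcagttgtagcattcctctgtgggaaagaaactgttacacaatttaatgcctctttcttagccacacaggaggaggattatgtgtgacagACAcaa

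A GENCODE sequence was found for 113 of the 114 genes (not for Snord43). Both boxes were found in 42 of 68 Snord sequences (61.8%) and in 0 of 36 Snora sequences, and the ACA in 30 of 36 Snora sequences (83.3%) and in 0 of 68 Snord sequences. Among all 1558 GENCODE small nucleolar and Cajal body RNA genes, 311 held both boxes and 301 the ACA. Of the 9 Scarna sequences, 4 held both boxes and 2 the ACA. In all, 109 of the 114 genes lie inside a longer gene, 33 in a ribosomal protein gene, 7 in a translation factor gene, 16 in a noncoding host and 53 in another gene. These classes were set by gene name, noncoding hosts being those named Snhg, Gas5, Zfas1 or Dancr. The 53 can therefore include noncoding hosts under other names. An annotated exon of the longer gene covers 45 of the genes wholly, 33 of them in a transcript classed as a retained intron. Snord15b is such a gene, whereas Snord17, Snord104, Snora21, Snora20 and Snora41 overlap no annotated exon. Of the other genes named below, Snord2, Snord22, Snord96a, Snord99, Snora7a and Snora28 lie wholly inside an annotated exon. So do Snora64, Snora65, Snora68, Snora74a and Snora81. Reads of a covering exon cannot be told apart from those of the gene itself. RefSeq lengths ran between 42 and 275 nt, with a median of 68.0 nt for Snord, 119.5 nt for Snora and 118.0 nt for Scarna genes. The annotations differ for some genes, and Snora20 has 61 nt in RefSeq and 128 nt in GENCODE.

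Counts at these genes were sparse. Library totals ran between 33101755 and 58048387 counts in fresh-frozen, 16269854 and 22494012 in FFPE 18 h and 3666173 and 11780691 in FFPE 3 wk libraries, of which the 114 genes held between 282 and 1851 per library. The lowest of these, 282 counts in furan FFPE 3 wk library 43, gave 72.4 CPM (counts per 1000000 counts of the library) with a 95% Wilson interval of 64.4 to 81.4, which covers counting error only. Hepatocyte markers were high in every group, with the lowest sum over 6 genes at 70247 CPM. Skeletal muscle markers, summed over 4 genes, reached 471 CPM in 1 furan and 247 CPM in 1 control FFPE 3 wk library, against at most 0.133 CPM in any fresh-frozen library. The part of muscle RNA in the results below was not tested. Rn45s, the ribosomal RNA precursor, took between 0.129% and 0.520% of counts in fresh-frozen libraries and between 4.85% and 13.2% in FFPE 3 wk libraries. In FFPE 18 h livers 2 libraries stood apart, control 06 with 37.3% and furan 42 with 16.5%, against 6.42% to 9.84% in the other 6. Several results below are also given without these libraries, and the part of ribosomal RNA content in them was not tested.

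The share of counts at the 114 genes was higher in FFPE than in fresh-frozen pieces of every liver that gave both. In furan livers the summed level was 24.2, 20.9 and 29.2 CPM in fresh-frozen libraries. It was 29.9, 57.1, 27.4 and 38.2 CPM in FFPE 18 h and 63.9, 79.4, 72.4 and 110 CPM in FFPE 3 wk libraries. In control livers it was 19.0, 20.1 and 19.1 CPM in fresh-frozen libraries. It was 35.5, 31.6, 36.6 and 113.7 CPM in FFPE 18 h and 79.4, 129, 71.5 and 116 CPM in FFPE 3 wk libraries. Within animals, the ratio of FFPE 18 h over fresh-frozen lay above 1 in 6 of 6 livers (median 1.55, range 1.24 to 5.95), with the highest in control 06 and the next highest at 1.87. The ratio of FFPE 3 wk over fresh-frozen lay above 1 in 6 of 6 livers (median 3.66, range 2.65 to 6.04). The ratio of FFPE 3 wk over FFPE 18 h lay above 1 in 8 of 8 livers (median 2.19, range 1.02 to 4.07). Exact two-sided sign-flip tests over the livers gave p = 0.03125, 0.03125 and 0.0078125 in that order of ratios, each the smallest p that its number of livers allows.

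Taken without the pairing, geometric means of the share in control livers were 2.40-fold higher in FFPE 18 h and 4.94-fold higher in FFPE 3 wk than in fresh-frozen libraries (exact permutation p = 0.0571 for each, the smallest possible for 4 against 3 libraries; adjusted p = 0.129 over 36 share tests). In furan livers they were 1.49-fold higher in FFPE 18 h (exact permutation p = 0.114, with overlapping groups) and 3.26-fold higher in FFPE 3 wk libraries (exact permutation p = 0.0571). FFPE 3 wk exceeded FFPE 18 h libraries 2.18-fold in furan livers (exact permutation p = 0.0286, adjusted p = 0.129) and 2.06-fold in control livers (exact permutation p = 0.0857). None of the 36 tests had an adjusted p under 0.05. Without control 06 the control ratio was 1.78 for FFPE 18 h over fresh-frozen and 2.78 for FFPE 3 wk over FFPE 18 h. Without furan 42 the furan ratios were 1.29 and 2.53.

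**Figure D1:**
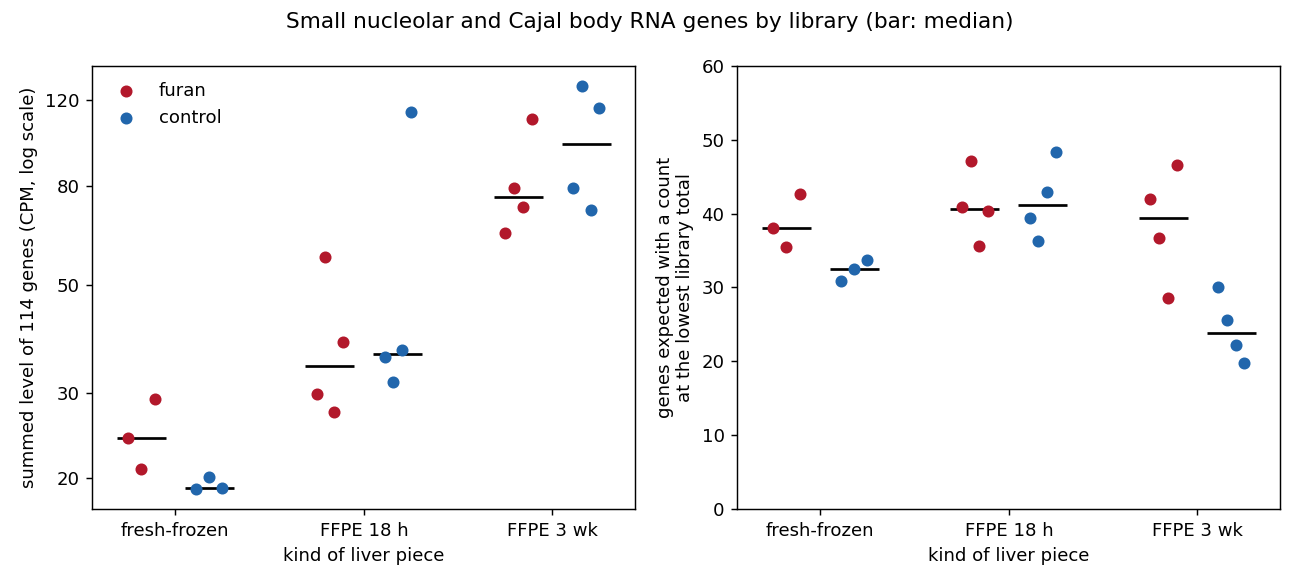
Left, summed CPM of the 114 genes (log axis), and right, the number of the genes expected with at least 1 count if each library were thinned to the lowest total of 3666173 counts, by kind of piece. Points are libraries and bars are medians; the summed level is higher in FFPE 3 wk than in every fresh-frozen library, and 3 of the 4 control FFPE 3 wk libraries hold the lowest values on the right.

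The number of the genes seen with at least 1 count did not follow the share. Detection was compared at equal depth. At 3666173 counts a library was expected to show on average 38.8 genes in furan and 32.4 in control fresh-frozen libraries. The numbers were 40.96 in furan and 41.7 in control FFPE 18 h, and 38.5 in furan and 24.4 in control FFPE 3 wk libraries. In control livers FFPE 3 wk libraries showed 24.4 and FFPE 18 h libraries 41.7 genes, with no overlap (exact permutation p = 0.0286, the smallest possible; adjusted p = 0.129 over 9 tests). With at least 5 counts asked for, the direction turned to 9.24 more genes after 3 weeks. Without thinning, between 77 and 89 genes had a count in a fresh-frozen, 55 to 69 in an FFPE 18 h and 21 to 50 in an FFPE 3 wk library. In FFPE 3 wk pieces 41 genes were at 0 in every furan and 66 in every control library. At 0 in all 22 libraries were 14 genes, among them the 3 listed copies of the imprinted brain family, Snord116, Snord116l1 and Snord116l2. Only Snord104, Snord15b and Snora64 had a count in all 22. The 5 leading genes of a library held on average 44.9% of the member counts in furan and 52.0% in control FFPE 3 wk libraries, and 38.6% in furan and 40.9% in control fresh-frozen libraries.

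Among box C/D RNAs, Snord17 was nearly uncounted in frozen tissue and led several FFPE libraries. In furan livers Snord17 had 0.0345, 0.0246 and 0.0302 CPM in fresh-frozen libraries. It had 1.29, 6.79, 1.82 and 1.57 CPM in FFPE 18 h and 4.00, 15.1, 1.54 and 18.6 CPM in FFPE 3 wk libraries. In control livers it had 0.0445, 0.0775 and 0 CPM in fresh-frozen libraries. It had 1.77, 1.29, 2.298 and 21.5 CPM in FFPE 18 h and 15.002, 21.9, 5.53 and 11.3 CPM in FFPE 3 wk libraries. Every FFPE library lay above every fresh-frozen one. By edgeR's quasi-likelihood test with Benjamini-Hochberg adjustment over all genes, Snord17 was higher in FFPE 18 h by a log2 fold change of 6.63 ± 0.88 (SE) in furan livers (adjusted p = 2.87e-05) and 7.85 ± 1.68 in control livers (adjusted p = 0.00212). In furan livers without furan 42 it was 5.71, and without control 06 that in control livers was 5.47, both still past the threshold. Without control fresh-frozen 04 the control value was 8.60. The frozen groups held 4 (furan) and 6 (control) Snord17 counts in all, so the pooled FFPE 18 h ratio in control livers, 159, has a 95% counting interval of 72.4 to 435. Without control 06 that ratio was 43.9, with an interval of 19.4 to 123. In FFPE 3 wk livers the log2 fold change over fresh-frozen was 8.09 ± 1.03 in furan livers (adjusted p = 8.95e-05) and 8.15 ± 1.11 in control livers (adjusted p = 7.84e-04), or 8.86 without control fresh-frozen 04 and 7.56 without 06.

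Snord15b, inside the ribosomal protein gene Rps3, and Snord22, in the noncoding host Snhg1, showed the same direction with wide spread. Snord15b had 0.0517, 0.0491 and 0.0302 CPM in furan fresh-frozen libraries, 0.553, 4.39, 0.222 and 1.30 CPM in FFPE 18 h and 1.19, 3.25, 5.90 and 12.4 CPM in FFPE 3 wk furan libraries. It had 0.0222, 0.0388 and 0.0189 CPM in fresh-frozen, 0.589, 0.414, 1.06 and 10.3 CPM in FFPE 18 h and 1.64, 8.86, 1.43 and 9.12 CPM in FFPE 3 wk control libraries. Every FFPE library exceeded every fresh-frozen one. The edgeR log2 fold change of FFPE 18 h over fresh-frozen was 5.28 ± 1.08 in furan livers (adjusted p = 8.69e-04) and 7.25 ± 1.70 in control livers (adjusted p = 0.00363). Without control 06 the control value was 4.61, and without furan 42, the highest of its group, Snord15b did not pass the filter in furan livers. Its host Rps3 rose by 1.77 ± 0.07 (adjusted p = 1.28e-09) and 1.74 ± 0.08 (adjusted p = 1.08e-07) in the same edgeR comparisons of furan and of control livers. Snord22 lies wholly in an annotated exon of Snhg1, whose reads cannot be told apart from its own. It had 1.97, 4.86, 0.622 and 2.38 CPM in furan and 2.12, 1.86, 2.298 and 15.8 CPM in control FFPE 18 h libraries, against 0.310, 0.369 and 0.574 CPM in furan and 0.111, 0.291 and 0.170 CPM in control fresh-frozen libraries. In FFPE 3 wk libraries of control livers Snord22 ran between 0 and 21.9 CPM. Its call there by edgeR (log2 fold change 5.61 ± 1.71, adjusted p = 0.0398) was lost when any 1 control fresh-frozen library was left out (adjusted p = 0.117 to 0.142).

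Snord104, the gene with most counts over all libraries (1756), gave the most even difference although its RefSeq length is only 73 nt. It had 6.70, 8.13, 6.71 and 9.69 CPM in furan and 6.71, 8.49, 7.48 and 4.91 CPM in control FFPE 18 h libraries, against 0.741, 0.590 and 0.725 CPM in furan and 0.556, 0.872 and 0.265 CPM in control fresh-frozen libraries. Neither control 06 nor furan 42 was the highest of its group. The edgeR log2 fold change of FFPE 18 h over fresh-frozen was 3.74 ± 0.22 in furan livers and 3.90 ± 0.33 in control livers, and that of FFPE 3 wk over fresh-frozen was 3.16 ± 0.50 and 3.92 ± 0.72. After 3 weeks Snord104 had 7.77, 4.46, 4.11 and 9.00 CPM in furan and 11.7, 8.55, 8.59 and 7.60 CPM in control livers, which did not differ from 18 h past the threshold (edgeR log2 fold change -0.60 ± 0.31 in furan livers, adjusted p = 0.152, and 0.03 ± 0.38 in control livers, adjusted p = 0.982).

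Among box H/ACA RNAs, Snora74a had 0 counts in all 3 control fresh-frozen libraries and 0.0345, 0 and 0.0604 CPM in furan ones. It had 1.17, 2.11, 0.667 and 0.596 CPM in furan and 1.18, 0.621, 1.24 and 6.14 CPM in control FFPE 18 h libraries. After 3 weeks it had 4.32, 4.33, 11.6 and 10.7 CPM in furan and 7.36, 7.21, 2.10 and 8.51 CPM in control libraries. Set against a floor of 3 counts over the group, control livers were at least 110-fold higher after 18 h (at least 49.5-fold without control 06) and at least 299.7-fold higher after 3 weeks. In furan livers the edgeR log2 fold change over fresh-frozen was 5.27 ± 0.78 after 18 h and 7.68 ± 0.85 after 3 weeks, and FFPE 3 wk exceeded FFPE 18 h by 2.41 ± 0.55 (adjusted p = 0.00419).

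Snora21, in the ribosomal protein gene Rpl23, separated the fixation times in furan livers. It had 2.16, 2.98, 2.31 and 3.14 CPM in furan FFPE 3 wk libraries, against 0.0615, 0.117, 0 and 0.162 CPM in furan FFPE 18 h and 0.0345, 0.0491 and 0.0906 CPM in furan fresh-frozen libraries. FFPE 3 wk exceeded FFPE 18 h by a log2 fold change of 4.54 ± 0.90 and fresh-frozen by 5.40 ± 0.83 in the edgeR comparisons of furan livers. In control FFPE 3 wk libraries the same gene had 0, 4.12, 0 and 17.3 CPM, so that 2 of 4 control livers gave none. Control FFPE 18 h libraries had 12, 0, 5 and 41 Snora21 counts, so the fixation times overlapped in control livers. Snora64, in Rps2, also rose between the fixation times in furan livers. It had 4.00, 4.87, 2.31 and 2.55 CPM after 3 weeks against 0.615, 0.995, 0.934 and 0.433 CPM after 18 h (edgeR log2 fold change 1.87 ± 0.59, adjusted p = 0.0254). That call was lost without furan FFPE 18 h 41, 43 or 44 or furan FFPE 3 wk 41 or 42 (edgeR adjusted p = 0.0542 to 0.0924).

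**Figure D2:**
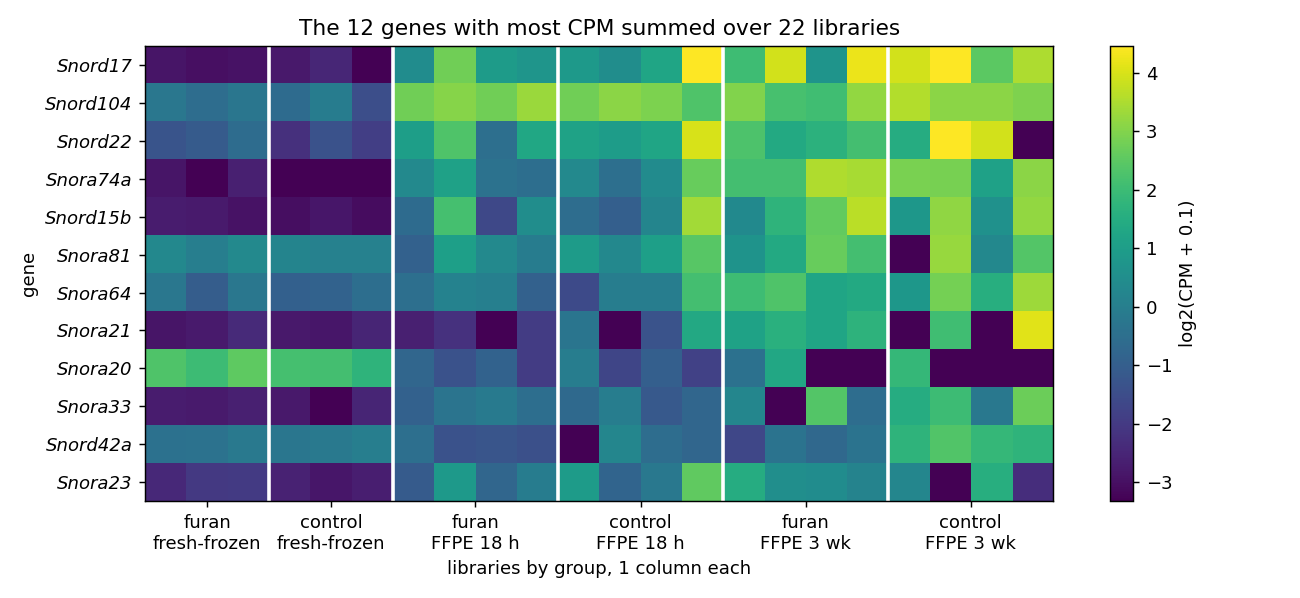
Levels of the 12 genes with most CPM summed over the 22 libraries, as log2(CPM + 0.1), with 1 column per library and white lines between groups. Snord17 and Snora74a are dark in all fresh-frozen libraries and bright in FFPE ones. Snord104 is brighter in every FFPE than in every fresh-frozen library. Snora20 runs the other way, between 3.22 and 5.74 CPM in fresh-frozen libraries and at 0 in 5 of 8 FFPE 3 wk libraries.

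Snora20, in an intron of the chaperonin subunit gene Tcp1, was the most abundant of the genes in frozen tissue and the clearest faller. It had 0.492, 0.293, 0.445 and 0.162 CPM in furan and 0.883, 0.207, 0.412 and 0.184 CPM in control FFPE 18 h libraries, against 4.88, 3.96 and 5.74 CPM in furan and 4.40, 4.26 and 3.22 CPM in control fresh-frozen libraries, with no overlap. The edgeR log2 fold change was -3.54 ± 0.30 in furan livers (adjusted p = 6.45e-07) and -2.96 ± 0.40 in control livers (adjusted p = 1.04e-04), or -3.56 without control FFPE 18 h 02. Tcp1 fell too, and its edgeR log2 fold change was -0.91 ± 0.07 in furan livers (adjusted p = 1.91e-07) and -1.001 ± 0.08 in control livers (adjusted p = 2.09e-06). After 3 weeks Snora20 had 0.648, 2.43, 0 and 0 CPM in furan and 3.55, 0, 0 and 0 CPM in control libraries. The edgeR log2 fold change over fresh-frozen was -2.66 ± 0.96 in furan livers (adjusted p = 0.0426) and -2.44 ± 1.82 in control livers (adjusted p = 0.385). The call in furan livers was lost when furan FFPE 3 wk 41 or 43 or any 1 furan fresh-frozen library was left out (edgeR adjusted p = 0.0552 to 0.138), and without furan FFPE 3 wk 42 the value was -4.38.

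The other genes called lower after 18 h were Snora28, in the translation factor gene Eif5, in both treatments, and Snord96a, in Rack1, and Snord2, in Eif4a2, in furan livers. Snora28 had 0.307, 0.176, 0.222 and 0.487 CPM in furan and 0.353, 0.0518, 0.412 and 0.369 CPM in control FFPE 18 h libraries, against 1.52, 0.934 and 2.11 CPM in furan and 1.22, 1.32 and 1.19 CPM in control fresh-frozen libraries. Its edgeR log2 fold change was -2.10 ± 0.43 in furan livers (adjusted p = 8.69e-04) and -1.77 ± 0.50 in control livers (adjusted p = 0.0101). In furan livers the edgeR log2 fold change of Snord96a was -2.17 ± 0.39 and that of Snord2 was -2.41 ± 0.57, or -3.18 without furan FFPE 18 h 41. In control livers edgeR gave -0.995 ± 0.52 for Snord96a (adjusted p = 0.116) and -1.17 ± 0.75 for Snord2 (adjusted p = 0.190), and without control 06 Snord2 was called lower, at -2.43 (adjusted p = 0.00587). Snora81 shares the host Eif4a2 with Snord2. Its edgeR log2 fold change was 0.30 ± 0.43 in furan livers (adjusted p = 0.538), or -0.17 without furan 42, and 1.81 ± 0.62 in control livers (adjusted p = 0.0249), or 0.85 without control 06 (adjusted p = 0.0357). The call in control livers was lost without any 1 control fresh-frozen library (edgeR adjusted p up to 0.0742).

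Most of the 114 genes did not pass the low-count filter, and those that passed did so mainly through the kind of piece where they were high, so the counts that follow describe the comparisons and lend no support to a direction. In furan livers after 18 h, 13 of 26 tested genes were called higher and 4 lower by edgeR, against 73.0% of all tested genes called in either direction (36.8% higher and 36.2% lower), and in control livers 13 of 21 were called higher and 2 lower, against 68.0% of all (34.2% higher and 33.8% lower). After 3 weeks, 12 of 17 were higher and 1 lower in furan livers, against 45.3% of all genes called (22.4% higher and 22.9% lower), and 8 of 14 were higher and 0 lower in control livers, against 26.2% (13.2% higher and 13.0% lower). This last split depended on the filter, since asking for at least 1 count in 3 libraries gave 24 calls in control livers after 3 weeks, 7 higher and 17 lower. Leaving out furan 42 gave 11 higher and 4 lower of 23 genes in furan livers after 18 h, and leaving out control 06 gave 13 higher and 3 lower of 25 in control livers. In the 18 h comparisons 13 of the 26 and 13 of the 21 passed the filter through FFPE libraries alone. Between fixation times, 3 of 16 genes were higher after 3 weeks than after 18 h in furan livers, against 33.0% of all genes called (15.6% higher and 17.5% lower), and by edgeR 0 of 17 were called in control livers, against 10.6% (1 gene at an unadjusted p under 0.05, against 23.4% of all, and 1 by DESeq2). The median log2 fold change over the tested genes was 0.94 in furan and 2.60 in control livers after 18 h, and 2.95 in furan and 3.65 in control livers after 3 weeks, while over all genes it was 0.02, 0.02, 0.01 and -0.03 in the same order. The medians after 18 h were 0.53 without furan 42 and 1.16 without control 06. Thinning all libraries to 3666173 counts gave 2 calls in each 18 h comparison and 5 in each 3 wk comparison with fresh-frozen tissue, and the animal as a block gave 3 calls, against 8 without it, in control livers after 3 weeks. Shares of all genes called are given for the main edgeR fits only, not for the other filter, left-out libraries, thinning or the block. The further genes called higher in both treatments after 18 h included Snora78, Snora68, Snora31, Snora23 and Snord99. Snora78 and Snord99 lie in the noncoding hosts Snhg9 and Snhg12, Snora31 in Tpt1 and Snora23 in Ipo7. Of these, Snora31 did not pass the filter in furan livers without furan 42, nor Snora68 in control livers without control 06.

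The difference between kinds of piece went along with the length of the gene. Among the 85 genes with at least 20 counts over all libraries, the log2 ratio of mean CPM + 0.1 in FFPE 18 h over fresh-frozen libraries lay above 0 for 17 of 21 genes of at least 120 nt in RefSeq (median 1.06), 14 of 23 genes between 80 and 120 nt (median 0.17) and 18 of 41 shorter genes (median -0.20). After 3 weeks the counts were 18 of 21 (median 2.41), 14 of 23 (median 0.69) and 26 of 41 (median 0.40). Spearman's rho across the genes was 0.416 after 18 h and 0.384 after 3 weeks, or 0.439 and 0.422 with GENCODE lengths, and 0.328 after 18 h without control 06 and furan 42. Within a class, rho was 0.372 after 18 h and 0.121 after 3 weeks over 48 Snord genes, and 0.170 and 0.269 over 30 Snora genes. With GENCODE lengths it was 0.371 and 0.182 for Snord and 0.0366 and 0.197 for Snora genes, each lower than over all genes. These are descriptions across genes that share libraries, with no test. The 28 longest genes held 25.4% of the member CPM in furan and 24.6% in control fresh-frozen libraries, against 60.5% in furan and 58.8% in control FFPE 3 wk libraries. The 29 shortest held 39.2% in furan and 41.4% in control fresh-frozen libraries, against 10.2% in furan and 10.3% in control FFPE 3 wk libraries. The mean summed level of these 29 was 9.68 CPM in furan and 8.03 CPM in control fresh-frozen libraries. After 3 weeks it was 8.29 CPM in furan and 10.2 CPM in control libraries, so their share fell mainly as other genes rose. Snora20 is among the 29 only by its RefSeq length of 61 nt (128 nt in GENCODE), with a mean of 4.41 CPM over the fresh-frozen libraries.

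**Figure D3:**
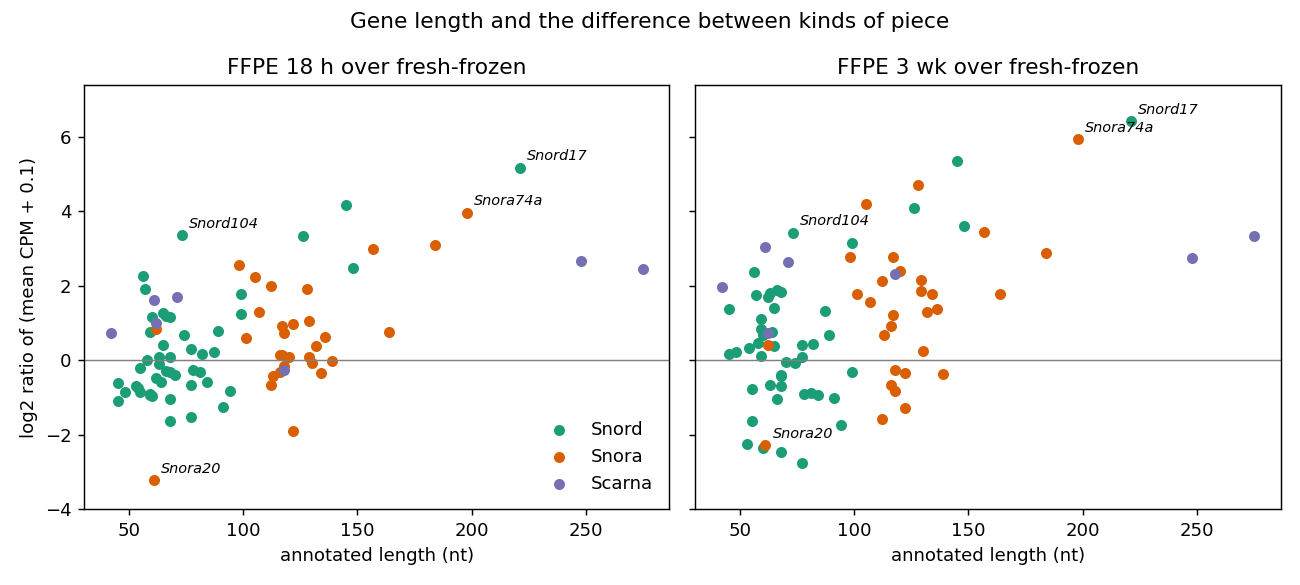
RefSeq length against the log2 ratio of mean CPM + 0.1 for the 85 genes with at least 20 counts, FFPE 18 h (left) and FFPE 3 wk (right) over fresh-frozen libraries, coloured by class. Long genes such as Snord17 and Snora74a lie at the top right, while Snord104 is a short gene with a ratio above 3 on both panels and Snora20 lies below -2.

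Shares of the member CPM were also summed by host. Genes wholly inside an annotated exon held 48.4% of the member CPM in furan and 46.8% in control fresh-frozen libraries. They held 44.9% in furan and 46.6% in control libraries after 18 h, and 52.8% in furan and 53.1% in control libraries after 3 weeks. Genes in translation factor hosts held 19.7% in furan and 19.0% in control fresh-frozen libraries, against 7.16% in furan and 4.47% in control FFPE 3 wk libraries. Their mean summed level did not fall with this share. It was 4.87 CPM in furan and 3.70 CPM in control fresh-frozen libraries, and 5.83 CPM and 4.41 CPM in FFPE 3 wk libraries. The 5 genes in no longer gene, led by Snord104, held 22.4% in furan and 15.3% in control FFPE 18 h libraries, against 5.04% in furan and 5.02% in control fresh-frozen libraries. Without control 06 the control FFPE 18 h value was 24.4%, and without furan 42 the furan one was 25.99%. Gene and host had log2 fold changes of the same sign in 16 of 22 pairs in furan livers and 9 of 16 pairs in control livers after 18 h.

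The 9 Scarna genes together had 1.17, 4.56, 0.889 and 1.30 CPM in furan and 2.24, 1.45, 1.53 and 8.17 CPM in control FFPE 18 h libraries, against 0.345, 0.197 and 0.332 CPM in furan and 0.356, 0.407 and 0.322 CPM in control fresh-frozen libraries. After 3 weeks they had 4.75, 2.70, 4.88 and 6.71 CPM in furan and 7.09, 5.46, 4.01 and 4.26 CPM in control libraries. The FFPE and fresh-frozen ranges did not overlap in either treatment, with geometric means 5.58-fold higher in furan and 7.01-fold higher in control livers after 18 h, and 16.0-fold and 14.1-fold higher after 3 weeks (exact permutation p = 0.0571 for each, the smallest possible). Without furan 42 and control 06 the ratios after 18 h were 3.91 and 4.74. The summed Snora level in furan livers after 18 h was 0.971-fold that of fresh-frozen libraries (exact permutation p = 0.971). Few Scarna genes had counts enough for a test. Scarna17 was called higher after 18 h in control livers by edgeR (log2 fold change 2.60 ± 0.55, adjusted p = 0.00193), with 0.412, 0.621, 0.589 and 0.860 CPM in FFPE 18 h against 0.0889, 0.194 and 0.0947 CPM in fresh-frozen libraries. In furan livers Scarna17 did not pass the filter after 18 h. It had 3, 7, 2 and 2 counts in FFPE 18 h against 15, 4 and 6 counts in the deeper fresh-frozen libraries. Scarna6, of 248 nt, was called higher after 3 weeks in furan livers by edgeR (log2 fold change 5.40 ± 1.33, adjusted p = 0.00636). It had 1.84, 0, 3.59 and 2.46 CPM against 0.0345, 0.0246 and 0.0604 CPM in fresh-frozen libraries, and the call was lost without furan fresh-frozen 41 (adjusted p = 0.0522) or 43 (adjusted p = 0.0546). In control livers Scarna6 did not pass the filter after 3 weeks. It had 0, 4, 0 and 0 counts in FFPE 3 wk against 5, 5 and 5 counts in the deeper fresh-frozen libraries. Scarna13, in Snhg10, was tested only in FFPE livers and was not called there.

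In frozen tissue the summed level lay higher in every furan than in every control library, in a design too small to pass the threshold. The 3 furan libraries averaged 24.7 ± 4.16 CPM and the 3 control libraries 19.4 ± 0.61 CPM (SD, n = 3 each), 1.26-fold by geometric means (exact permutation p = 0.1, the smallest possible; adjusted p = 0.165). The highest furan library, 44, also had the highest Rn45s share of the frozen libraries, 0.520% against at most 0.182% in the others, and its part in the difference was not tested. Snord genes were 1.27-fold and Snora genes 1.27-fold higher, and Scarna genes 0.784-fold. At equal depth the furan libraries showed 38.8 ± 3.62 and the control libraries 32.4 ± 1.42 of the genes (SD, n = 3 each; exact permutation p = 0.1).

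By single gene, 1 of 27 tested genes was called higher with furan in fresh-frozen livers and 0 lower, against 15.7% of all genes called in either direction (8.21% higher and 7.47% lower). The called gene was Snora41, a box H/ACA RNA in the translation elongation factor gene Eef1b2, with 0.310, 0.467 and 0.242 CPM in furan livers against 0.0889, 0.136 and 0.0947 CPM in control livers. These levels rest on 18, 19 and 8 counts in furan and 4, 7 and 5 counts in control libraries, and the groups did not overlap. Its log2 fold change was 1.58 ± 0.39 (edgeR adjusted p = 0.0320). The call was lost with DESeq2 (adjusted p = 0.0915), with 1 model of all 6 groups, and when furan 41 or 43 or any 1 control library was left out (edgeR adjusted p = 0.0588 to 0.104). Eef1b2 itself had a log2 fold change of -0.09 ± 0.06 (edgeR adjusted p = 0.348). The next smallest p-values belonged to Snora65 in Rpl12 (0.88 ± 0.33, edgeR adjusted p = 0.115), Snord22 (0.99 ± 0.40, edgeR adjusted p = 0.135) and Snora7a in Rpl32 (0.75 ± 0.31, edgeR adjusted p = 0.143). Of their hosts, Rpl12 was itself called higher (0.70 ± 0.17, edgeR adjusted p = 0.0299). Snhg1 (-0.04 ± 0.15, edgeR adjusted p = 0.896) and Rpl32 (0.05 ± 0.09, edgeR adjusted p = 0.720) were not called. Each of these genes lies wholly in an annotated exon of its host, whose reads cannot be told apart from its own. The ranges of TMM-scaled CPM did not overlap for 6 of 27 genes, 5 of them higher with furan, against 37.4% of all genes not overlapping and 19.0% higher. The median log2 fold change of the 27 genes was 0.23, against -0.01 for all genes, and 6 of them passed the filter through furan libraries alone.

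**Figure D4:**
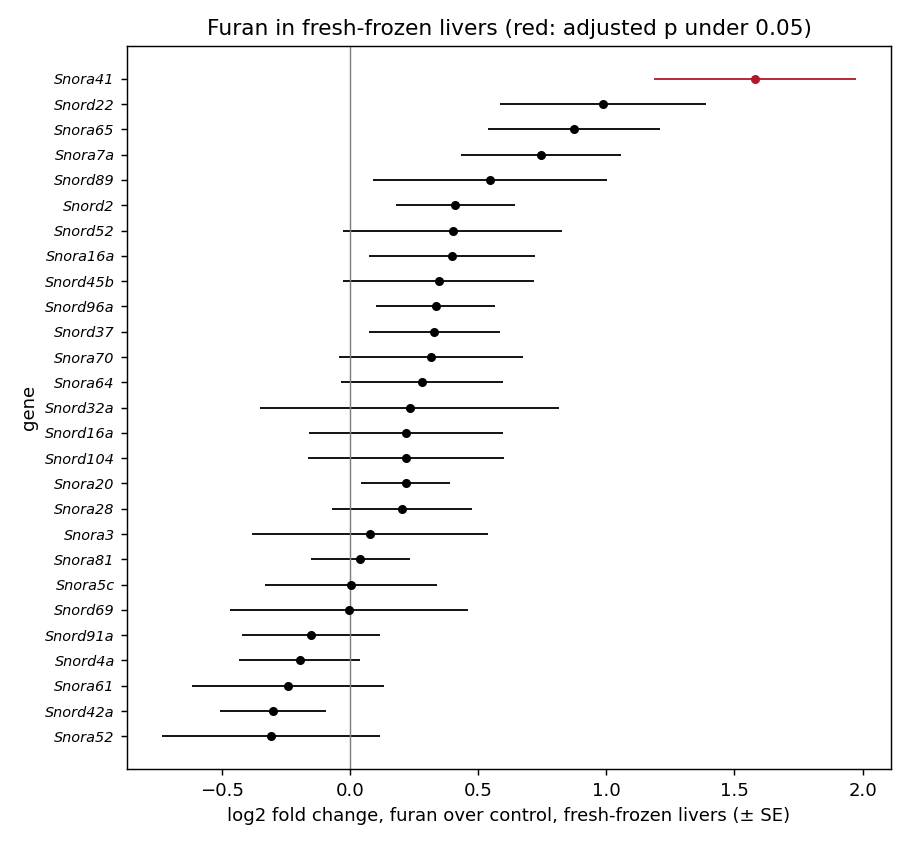
Log2 fold change of furan over control in fresh-frozen livers with its standard error for the 27 genes that passed the low-count filter (3 furan and 3 control libraries). Snora41, at 1.58, is the only gene past an adjusted p of 0.05, and most error bars cross or come near 0.

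edgeR's comparison of furan with control called 0 of the genes in FFPE livers, whereas DESeq2 called 1 lower after 18 h and 1 edgeR model of all 6 groups called 4 after 3 weeks. The shares of all genes called by DESeq2 and by the model of all groups are not given here. After 18 h the summed level was 38.2 ± 13.5 CPM in furan and 54.4 ± 39.6 CPM in control livers (SD, n = 4 each; 0.787-fold, exact permutation p = 0.571), and without control 06 the log2 difference turned to 0.08. edgeR called 0 of 16 genes, against 8.39% of all genes called (1 gene at an unadjusted p under 0.05, against 23.4% of all). Snora81 had the smallest p, with 0.430, 1.99, 1.16 and 0.867 CPM in furan and 1.82, 1.14, 2.00 and 5.28 CPM in control livers (log2 fold change -1.46 ± 0.61, edgeR adjusted p = 0.167, and -0.54 without control 06). The negative values of Snord22 (-1.54 ± 0.82) and Snora64 (-1.41 ± 0.79) turned to 0.26 and 0.18 without control 06. Snord104, even across the FFPE 18 h libraries, had 0.07 ± 0.17 (edgeR adjusted p = 0.854).

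After 3 weeks the summed level was 81.4 ± 20.1 CPM in furan and 98.8 ± 27.7 CPM in control livers (SD, n = 4 each; 0.832-fold, exact permutation p = 0.314). edgeR and DESeq2 each called 0 of the genes, with 16 tested by edgeR, against 0.821% of all genes called by edgeR (1 gene at an unadjusted p under 0.05, against 10.9% of all). That gene was Snord42a, a box C/D RNA in the ribosomal protein gene Rpl23a, with 0.216, 0.676, 0.513 and 0.679 CPM in furan livers against 3.27, 4.94, 3.53 and 3.24 CPM in control livers. The groups stood well apart, on 2 to 8 counts per furan and 12 to 48 per control library, with a log2 fold change of -2.83 ± 1.27 (edgeR adjusted p = 0.418). In fresh-frozen livers the same gene had 0.655, 0.663 and 0.785 CPM with furan and 0.734, 0.795 and 0.909 CPM in control livers (log2 fold change -0.30 ± 0.21, edgeR adjusted p = 0.362). Snora41 had 0.108, 1.89, 0.257 and 1.10 CPM in furan and 0 CPM in all 4 control FFPE 3 wk libraries, and did not pass the filter there. The furan responses in FFPE and in fresh-frozen livers were compared by interaction terms, which called 0 of 29 genes for 18 h (1 at an unadjusted p under 0.05, against 3.31% of all) and 0 of 30 for 3 weeks (3 at an unadjusted p under 0.05, against 4.48% of all), against 0% of all genes called by edgeR in either.

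Genes whose products make, carry and trim these RNAs moved in both directions with preservation, as did genes at large. Of all tested genes 73.0% in furan and 68.0% in control livers were called after 18 h, about as many higher as lower, and 45.3% and 26.2% after 3 weeks. Among the 4 core proteins of box H/ACA particles, 4 of 4 were higher after 18 h in furan and in control livers by edgeR, led by Nop10 (log2 fold change 3.32 ± 0.08 and 3.29 ± 0.11), and 3 of 4 in furan and 2 of 4 in control livers after 3 weeks. Among the 4 core proteins of box C/D particles, Nop58 was higher after 18 h (0.69 ± 0.13 and 0.74 ± 0.12), while the methyltransferase Fbl (-3.36 ± 0.21 and -3.62 ± 0.25) and Nop56 (-2.12 ± 0.19 and -2.22 ± 0.32) were lower in furan and in control livers. After 3 weeks 0 of the 4 were higher, and 2 in furan and 1 in control livers were lower. Of 6 trimming and decay factors 0 were higher and 5 lower after 18 h in each treatment, led by the poly(A) polymerase Papd5 (-2.38 ± 0.11 and -2.35 ± 0.09), and after 3 weeks 4 in furan and 2 in control livers were lower. Of 12 assembly factors 4 were higher and 2 lower in furan and 4 higher and 3 lower in control livers after 18 h. After 3 weeks 2 assembly factors were higher and 2 lower in furan livers, and edgeR called 0 in control livers, where 2 had an unadjusted p under 0.05. Of 4 tested Cajal body proteins 3 were higher and 0 lower after 18 h in each treatment, and after 3 weeks 1 was higher in furan livers and 0 were called in control livers, where 0 had an unadjusted p under 0.05. The share of all genes at an unadjusted p under 0.05 is not given for that comparison, so the unadjusted counts cannot be weighed. Of the 14 noncoding hosts in the table, 12 of 13 tested in furan and 11 of 12 tested in control livers were higher after 18 h, among them Snhg6 (3.88 ± 0.15 and 3.88 ± 0.16), Snhg8 (3.33 ± 0.11 and 3.20 ± 0.13) and Gas5 (2.24 ± 0.11 and 2.23 ± 0.11). After 3 weeks 11 of 13 in furan and 8 of 11 in control livers were higher, and 0 were lower at either time. Of 7 other tested RNAs without a usual poly(A) tail, 7 were higher after 18 h in each treatment by edgeR, among them the ribonuclease RNAs Rmrp and Rpph1, and after 3 weeks 9 of 9 tested in furan and 7 of 7 in control livers were higher. That list held 14 RNAs, of which 11 were in the count matrix. In control livers after 18 h, 4 of the 7 tested passed the low-count filter through FFPE libraries alone. The counts for this list therefore lend no support to a direction.

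With furan in fresh-frozen livers, 1 of 4 box C/D proteins (Nop58, 0.81 ± 0.10, edgeR adjusted p = 0.00336) and 1 of 4 box H/ACA proteins (Nhp2, 0.60 ± 0.10, edgeR adjusted p = 0.0104) were higher and none lower, against 15.7% of all genes called. Of the 6 trimming and decay factors 1 was higher and 1 lower. edgeR called 0 of 12 assembly factors (3 at an unadjusted p under 0.05), 0 of 4 Cajal body proteins (2 at an unadjusted p under 0.05), 0 of 12 noncoding hosts (0 at an unadjusted p under 0.05) and 0 of 4 other RNAs without a usual poly(A) tail (1 at an unadjusted p under 0.05). The share of all genes at an unadjusted p under 0.05 is not given for fresh-frozen livers, so these unadjusted counts cannot be weighed. After 18 h with furan Nop58 (0.77 ± 0.13, edgeR adjusted p = 0.00290) and Nhp2 (0.65 ± 0.10, edgeR adjusted p = 0.00227) were again higher, as was Gar1 (0.67 ± 0.15, edgeR adjusted p = 0.0146), against 8.39% of all genes called. In the same comparison 1 of 13 noncoding hosts was higher and 1 of 7 other RNAs without a usual poly(A) tail lower, and edgeR called 0 assembly, Cajal body and trimming factors (1, 1 and 0 at an unadjusted p under 0.05, against 23.4% of all genes). After 3 weeks edgeR called 0 genes of these lists with furan, against 0.821% of all genes.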

How the data were processed

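Poly(A)-selected, unstranded RNA libraries were read on an Illumina sequencer, per the labels. The authors deposited raw read counts per gene, made with CASAVA 1.8.2, STAR 2.3.0 and featureCounts 1.4.4 on build mm9, per the submitters' processing notes. How reads that map to several places or overlap several genes were counted is not given in the sources used here, so genes with near-identical copies and genes inside exons of a host are uncertain. Of the count columns, 22 matched a labelled sample and 2 fresh-frozen columns did not and were not used; fresh-frozen pieces of control 03 and furan 42 were not analysed here. The replicates are different animals.

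CPM is per 1000000 counts of the library total. Single genes were tested with edgeR 4.0.16 (R 4.3.3): filterByExpr by group (minimum count 10), TMM, quasi-likelihood F test, Benjamini-Hochberg adjustment over all tested genes, threshold 0.05, with the 2 groups compared only. Standard errors were derived from the fold change and its F statistic. The test was also run on simulated data in which only genes above a minimum mean level were changed. That check does not cover the sparsest genes, and its outcome is not given here. Summed levels were compared by exact two-sided permutation tests of log2 CPM, detection by the hypergeometric expectation at the lowest total, ratios of pooled counts with exact 95% intervals, and groups at 0 against 3 counts over the group. Pieces of 1 liver are paired by the labels, which say that each liver was divided; deviations of genes correlated at 0.200 to 0.329 between FFPE 18 h and fresh-frozen, 0.0317 to 0.108 between FFPE 3 wk and fresh-frozen and -0.0109 to 0.0884 between FFPE 3 wk and FFPE 18 h pieces. Furan and control animals share no number. Alternatives were DESeq2 1.42.0, other filters, 1 model of all groups, thinning, the animal as a block and leaving out each library. Pooled ratios, class levels and host shares without the FFPE 18 h libraries control 06 and furan 42 were added after seeing the data.

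Sequences and coordinates come from GENCODE M21 (GRCm38), names and lengths from the RefSeq table; no mm9 coordinate is given. The text names the 12 genes with most CPM, up to 6 called genes each way by fold change in each preservation comparison, called genes and the 4 smallest p-values in each furan comparison, the Scarna genes that were tested, and some further called genes chosen after their values were seen. Members, lists and rules were chosen with earlier results of these data known. The lists of host genes, particle proteins, trimming factors and RNAs without poly(A) came with that choice.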

Additional observations from a re-analysis of the deposited data

Results flagged for a closer look

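In 15 of 68 groups of 4 libraries that were looked at, 1 library stood apart from the other 3 by Dixon's criterion. Chance alone gives this in about 1 in 20 groups of independent, normally distributed values. The groups here reuse the same libraries and overlapping genes, so 15 of 68 cannot be set against that rate. Most of the 15 were control FFPE 18 h library 06, in which Rn45s took 37.3% of counts. It had 113.7 CPM over all members, against 31.6 to 36.6 CPM in the other 3 control FFPE 18 h libraries. By class it had 62.1 CPM of Snord genes (others 18.8 to 20.4), 43.5 CPM of Snora genes (others 10.5 to 14.7) and 8.17 CPM of Scarna genes (others 1.45 to 2.24). By gene it had 21.5 CPM of Snord17 (others 1.29 to 2.298), 15.8 CPM of Snord22 (others 1.86 to 2.298), 10.3 CPM of Snord15b (others 0.414 to 1.06), 6.14 CPM of Snora74a (others 0.621 to 1.24) and 4.3005 CPM of Snora64 (others 0.235 to 0.884).

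Furan FFPE 18 h library 42, with Rn45s at 16.5%, had 4.56 CPM of Scarna genes (others 0.889 to 1.30) and 6.79 CPM of Snord17 (others 1.29 to 1.82). The part of ribosomal RNA content in these levels was not tested. Furan FFPE 18 h library 41 had 0.615 CPM of Snord42a, against 0.271 to 0.311 CPM in the other 3. After 3 weeks, control 03 had 73.6 CPM of Snord genes (others 41.4 to 46.4) and 4.94 CPM of Snord42a (others 3.24 to 3.53), and control 02 had 3.55 CPM of Snora20, of which the other 3 had 0.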

How the results depend on the processing

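Counts of members called changed most with the filter and the depth. The shares of all genes called under these settings, or with 1 library left out, are not given here. A change in members can therefore not be told apart from a change in calls at large. With DESeq2 the count was 0 (furan, fresh-frozen) and 1 (furan, FFPE 18 h); over fresh-frozen it was 26 (furan, 18 h), 27 (control, 18 h) and 13 (control, 3 wk); and between fixation times 5 (furan) and 1 (control). With no filter it was 28 (furan) and 29 (control) after 18 h. With at least 1 count in 3 libraries it was 32 (furan) and 29 (control) after 18 h, 21 (furan) and 24 (control, 17 of them lower) after 3 weeks, and 2 between fixation times in control livers. One model of all groups gave 0 for furan in fresh-frozen, 4 for furan in FFPE 3 wk, 11 for furan FFPE 18 h and 23 for control FFPE 3 wk over fresh-frozen, and 7 between fixation times in control livers. Thinned to 1 depth the count was 0 (furan, fresh-frozen), 2 in each 18 h and 5 in each 3 wk comparison with fresh-frozen and 0 between fixation times in furan livers. With the animal as a replicate block it was 14 (furan) and 19 (control) after 18 h, 10 (furan) and 3 (control) after 3 weeks and 2 (furan) and 0 (control) between fixation times. The cause was not tested, beyond fewer counts in thinned libraries.

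Leaving out 1 library gave 0 to 1 calls for furan in fresh-frozen, 15 to 17 (furan) and 15 to 19 (control) after 18 h, 7 to 14 (furan; 7 without fresh-frozen 43 and 8 without 41) and 4 to 14 (control; 4 without any 1 fresh-frozen library, 13 or 14 without FFPE 02, 04 or 06) after 3 weeks, and 2 to 5 (furan; 5 without FFPE 18 h 42 or FFPE 3 wk 43) and 0 to 1 (control; 1 without FFPE 18 h 06) between fixation times. Neither interaction changed from 0.

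The log2 difference of the member share with the replicate block (livers of both treatments pooled) was 0.905 for FFPE 18 h and 1.93 for FFPE 3 wk over fresh-frozen and 1.08 between fixation times, each with an unadjusted exact sign-flip p under 0.05. Between fixation times in furan livers, where the unadjusted exact p was 0.0286 (adjusted p = 0.129), it was 0.821 with TMM sizes (exact p = 0.0857) and 0.970 to 1.34 with 1 library left out, where 3 libraries against 4 cannot give a p under 0.05. For furan in FFPE 18 h it ran between -0.56 and 0.0841, positive without control 06. Without Rn45s in the total, the Snora share of furan FFPE 18 h over fresh-frozen turned to 0.115. Leaving out 1 library, the furan log2 fold change in FFPE 18 h ran between -2.17 and 0.263 for Snord22 and -1.80 and 0.177 for Snora64, positive without control 06.

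The difference in members detected turned with the count asked for. With at least 5 counts it was -0.0427 for furan in FFPE 3 wk, 15.6 (furan) and 16.4 (control) for FFPE 3 wk over fresh-frozen, and 12.2 (furan) and 9.24 (control) between fixation times. At full depth it was -23.5 (furan) and -19.7 (control) for FFPE 18 h over fresh-frozen and -19.75 between fixation times in furan livers. With 1 library left out it ran between -2.83 and 1.398 for furan in FFPE 18 h, -2.98 and 3.02 for furan FFPE 3 wk over fresh-frozen, -5.18 and 0.819 between fixation times in furan livers and -19.2 and -15.2 in control livers. All other results tried under these settings kept their direction and their side of an unadjusted p of 0.05 (shares, detection) or an adjusted p of 0.05 (single genes), except 29 single-member calls lost with 1 library left out and 17 lost and 1 gained under other settings. Counts of 0 to 3 in shallow FFPE 3 wk libraries limit all single-gene values there.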
